A study of Homo sapiens with 8 samples.

Results

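The genes described here are 10 antiviral genes of the interferon response: the IFIT family (IFIT1, IFIT2, IFIT3 and IFIT5), IFI44 and its relative IFI44L, the small membrane proteins IFI6 and IFI27, and the enzymes RSAD2 and CMPK2. They were found by gene name among the 31461 genes of the deposited table, and each of the 10 was listed for both lines. The table covers 8 RNA-seq libraries of human lung cancer lines, 2 for each combination of a line (A549, a lung adenocarcinoma line, or H1299, a large cell carcinoma line) and a transfection (a control microRNA, miR-ctrl, or miR-29a-3p). The labels call all 4 groups wild type. The labels give no dose, no time after transfection and no separate cultures behind the numbered libraries, and the p-values therefore cover only the spread of the libraries at hand, which may be technical. The question stated for the experiment was which genes miR-29a-3p may target.

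Interferons are secreted when a cell senses foreign RNA or DNA. They bind receptors on the cell surface, and JAK kinases then activate transcription factors, among them STAT2, which joins IRF9 and binds a short DNA element, the interferon-stimulated response element, in front of target genes. The IFIT genes can also be switched on directly by IRF3 in a cell that has sensed viral RNA. Their products bind viral RNA and block its translation. Of the other genes described here, IFI6 and IFI27 encode membrane proteins, and RSAD2 and CMPK2 encode enzymes that act on nucleotides. The RNAs of these antiviral genes are usually low in resting cells.

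The lines are named below as the libraries were labelled, because line markers lay opposite to the labels. Expression is given in FPKM, the number of sequenced fragments per length of transcript and per size of the library. CDKN2A, which is deleted in A549, had 24.3 ± 0.72 FPKM under the A549 label and 0.0818 ± 0.043 FPKM under the H1299 label (control libraries, SD, n = 2 each). Of 8 genes abundant in A549, 7 were higher in the H1299-labelled controls. A direction that depends on the line therefore holds for the label only. Of the epithelial markers, KRT8 and KRT18 were present in all groups, whereas EPCAM stayed under 1 FPKM in all 8 libraries. Libraries held an estimated 12217997 to 15595525 fragments and 12021 to 12837 genes at 1 FPKM or more.

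The transfected microRNA is printed first, because matches to its seed were searched in the 10 genes. Other kinds of site and other parts of the transcripts were not searched. The mature sequence is from RefSeq (GRCh38.p14, chr7:130876748-130876769, minus strand), with the seed, bases 2 to 8, in capitals.
hsa-miR-29a-3p: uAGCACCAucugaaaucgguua
The match to this seed, TGGTGCT, was searched in the longest coding 3′ UTR of each gene in GENCODE release 29. None of the 10 antiviral genes held it, against 16.4% of the 11632 tested genes that have such a UTR. The shorter 6-base match, GGTGCT, was present in 34.2% of those genes and in 1 of the 10, IFI44L. That site is shown with its flanks, the 6 matching bases in capitals (GRCh38, chr1:78643529-78643556, plus strand).
IFI44L: aaggcaggtaaGGTGCTgaaggtctgga
The UTRs searched ran from 171 bases (IFI27) to 4336 bases (IFI44L), and a missing match says only that these letters are not in that UTR.

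The promoters of these genes share a different sequence. RefSeq windows of 300 bases (250 before and 50 after the annotated start, GRCh38.p14) were at hand for 9 of the 10 genes, all but IFIT2. They were searched on both strands for the core of the interferon-stimulated response element, which is GAAA, any 2 bases and GAAA again, with no other motif searched. A match was present for 8 of these 9 genes, against 4.38% of the 27305 genes with a window and 3.57% of all 35116 windows of that length, and matches within a window did not overlap. The stretch from the first to the last match, with 10 bases on each side, is shown for each of the 8 genes along its own strand, with the matches in capitals (TTTC, 2 bases and TTTC where the motif lies on the opposite strand). The regions are, in the order printed, chr10:89392497-89392539, chr10:89327831-89327894, chr10:89414513-89414583, chr1:78649761-78649790, chr1:78620274-78620394, chr1:27672266-27672358 (minus strand), chr14:94110618-94110660 and chr2:6877622-6877651.
IFIT1: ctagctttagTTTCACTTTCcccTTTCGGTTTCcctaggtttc
IFIT3: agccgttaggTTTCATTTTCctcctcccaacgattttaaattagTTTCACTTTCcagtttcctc
IFIT5: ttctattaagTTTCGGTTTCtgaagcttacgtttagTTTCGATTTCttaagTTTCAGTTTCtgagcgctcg
IFI44: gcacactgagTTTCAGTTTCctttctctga
IFI44L: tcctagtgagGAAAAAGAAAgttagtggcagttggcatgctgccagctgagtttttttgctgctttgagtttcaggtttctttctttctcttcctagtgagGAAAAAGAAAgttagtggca
IFI6: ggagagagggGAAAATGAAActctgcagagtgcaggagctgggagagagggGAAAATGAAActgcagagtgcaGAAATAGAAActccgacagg
IFI27: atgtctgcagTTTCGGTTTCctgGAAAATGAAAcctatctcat
RSAD2: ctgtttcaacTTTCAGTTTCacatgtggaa

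The 16 matches lay between 164 bases before and 5 bases after a start site, 6 on the gene's strand and 10 on the opposite one. IFIT5 and IFI6 held 3 matches each, IFIT1, IFIT3, IFI44L and IFI27 held 2, and IFI44 and RSAD2 held 1. Read along the motif's strand, GAAAATGAAA occurred in IFI6, IFI27 and IFIT3, GAAACCGAAA in IFIT1, IFIT5 and IFI27, and GAAACTGAAA in IFI44, IFIT5 and RSAD2. Both matches of IFI44L were GAAAAAGAAA. The 3 windows of CMPK2 held no match, nor did the other of the 2 windows of RSAD2. A match is a description of the sequence and not a measurement of binding.

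**Figure D1:**
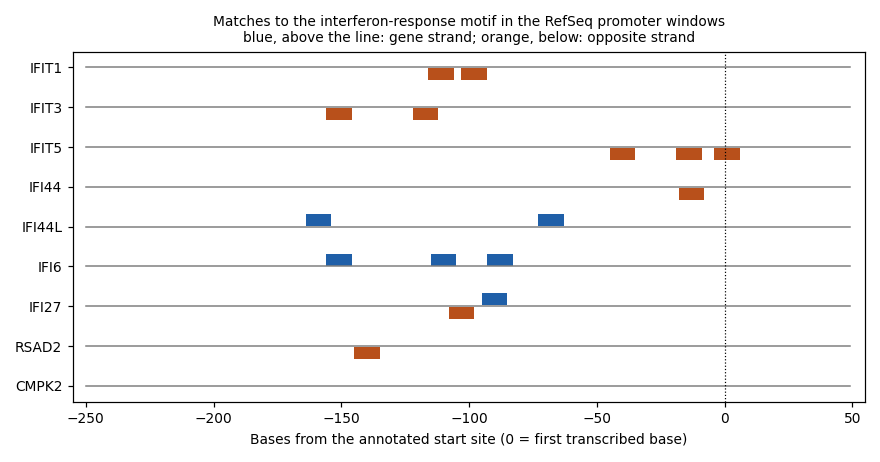
Positions of matches to the motif (GAAA, any 2 bases, GAAA) in the promoter windows of 9 genes, in bases from the annotated start (0 is the first transcribed base), with 1 window shown per gene. Blue boxes above a line are on the gene's strand and orange boxes below on the opposite strand; IFIT5 and IFI44 have matches within 50 bases of the start, and CMPK2 has none.

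In the libraries labelled A549, most of the 10 genes were higher after miR-29a-3p, and 3 of the 4 IFIT genes and IFI44 more than doubled their FPKM, as did the scarce IFI44L and IFI27. Of the 10, 9 rose, 0 fell and 1, CMPK2, was not called by limma (adjusted p under 0.05 over 14635 genes, on log2(FPKM + 1)), where 7.3% of all tested genes rose. In the libraries labelled H1299, 8 rose and 0 fell, where 25.1% of all tested genes rose, and IFIT5 and RSAD2 were not called. The genes that rose in both lines were 7 of the 10, against 2.94% of all genes. The median log2 difference of the 10 was 0.48 in A549 and 0.68 in H1299, where the medians of all genes were 0.00144 and 0.00122. In RNA from whole cultures, a higher level per cell and a larger share of responding cells cannot be told apart. Without any of A549 control 2, miR-29a-3p 1 or miR-29a-3p 2, the A549 count was 5 of 10; IFIT5, IFI44L, IFI6 and RSAD2 lost the call in each of these fits.

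**Figure D2:**
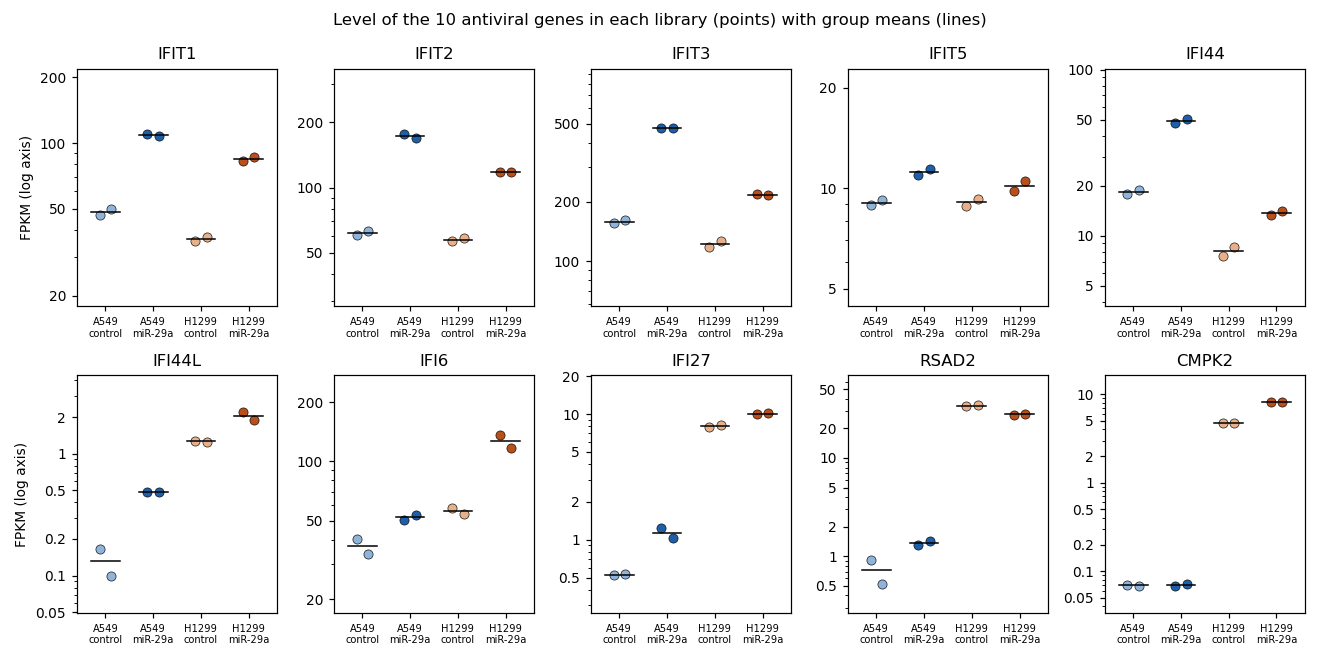
FPKM of each of the 10 genes in the 8 libraries, on log axes that differ between panels; points are libraries and lines are group means. The miR-29a-3p libraries sit above the controls of their line for 9 genes in A549 (29.8% of all tested genes) and 9 in H1299 (38.5%). The exceptions are CMPK2 in A549 and RSAD2 in H1299.

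IFIT3, which stabilises IFIT1 on RNA, was the most abundant of the 10 in every library. It stood at 156 and 162 FPKM in the A549 controls and at 477 and 479 after miR-29a-3p. In H1299 it stood at 118 and 126 FPKM in the controls and at 219 and 217 after miR-29a-3p. Both treated libraries lay above both controls in each line, as they did for 29.8% of all genes in A549 and 38.5% in H1299. IFIT3 rose by 1.58 ± 0.045 on the log2 scale in A549 (SE, adjusted p = 4.9e-05) and by 0.83 ± 0.045 in H1299 (adjusted p = 4e-05). The difference between these responses was 0.75 ± 0.064 (SE, adjusted p = 0.00044).

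IFIT2, a partner of IFIT1 and IFIT3 in the same RNA-binding complexes, followed the same order of groups. Its levels were 60.6 and 63.1 FPKM in the A549 controls and 177 and 170 after miR-29a-3p. In H1299 they were 56.7 and 58.5 FPKM in the controls and 119 and 118 after miR-29a-3p. The controls of the lines lay close together, and the treated A549 libraries were the highest. IFIT2 rose by 1.47 ± 0.043 in A549 (SE, adjusted p = 4.9e-05) and by 1.03 ± 0.043 in H1299 (adjusted p = 1.7e-05), and these responses differed by 0.45 ± 0.060 (adjusted p = 0.0022).

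IFIT1, which recognises RNA whose cap lacks the host's methyl marks, had close mean ratios in the lines. It stood at 47.0 and 49.95 FPKM in the A549 controls and at 109.7 and 108 after miR-29a-3p. The H1299 controls had 35.7 and 37.2 FPKM and the treated libraries 82.9 and 85.9. The ratio of mean FPKM was 2.25 in A549 and 2.32 in H1299. The difference between the responses was -0.04 on the log2 scale, with a 95% interval of -0.197 to 0.123 (limma, adjusted p = 0.70).

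The ratio of IFIT3 to IFIT1 therefore moved in opposite directions in the lines. It was 3.31 and 3.25 in the A549 controls and 4.35 and 4.43 after miR-29a-3p, against 3.29 and 3.40 in the H1299 controls and 2.64 and 2.52 after miR-29a-3p. The 4 controls shared nearly the same ratio, and the treated groups lay on either side of it. Both genes belong to a family of related sequences, so fragments could have been shared between them.

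IFIT5, which binds RNA ending in a triphosphate, was the least abundant IFIT gene and moved the least. It stood at 8.92 and 9.20 FPKM in the A549 controls and at 10.9 and 11.4 after miR-29a-3p. In H1299 the levels were 8.86 and 9.28 FPKM in the controls and 9.78 and 10.5 after miR-29a-3p. Its groups did not overlap within a line, and the controls of the lines overlapped. IFIT5 rose by 0.28 ± 0.056 in A549 (SE, adjusted p = 0.023), a call lost when any A549 library was left out (adjusted p = 0.0635 to 0.0979) or when the line was fitted alone (adjusted p = 0.0653). In H1299 its difference was 0.15 ± 0.056 (adjusted p = 0.071), and the call was gained after rescaling of the libraries (0.20, adjusted p = 0.0221). The response did not differ between lines by the test (0.13, 95% interval -0.06 to 0.322, adjusted p = 0.24).

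The family as a whole changed from a summed level of 278 ± 8.78 to 772 ± 4.95 FPKM (SD, n = 2 each) in A549 and from 225 ± 8.55 to 431 ± 0.381 in H1299. IFIT3 was 17.5 and 17.6 times as abundant per length as IFIT5 in the A549 controls and 43.6 and 41.9 times after miR-29a-3p. In H1299 these ratios were 13.3 and 13.6 in the controls and 22.4 and 20.6 after miR-29a-3p.

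The IFIT genes lie side by side on chromosome 10, in the order IFIT2 (ENSG00000119922, 89283694 to 89309276), IFIT3 (ENSG00000119917, 89327894 to 89340971), IFIT1 (ENSG00000185745, 89392546 to 89406486) and IFIT5 (ENSG00000152778, 89414586 to 89421001), all on the plus strand of GRCh38. Of the coding genes within this stretch of 137 kb, IFIT1B, a family member, lay between 0.049 and 0.197 FPKM in group means and was not tested. LIPA, the lysosomal acid lipase, has a gene model on the opposite strand (89213569 to 89414557) that covers IFIT2, IFIT3 and IFIT1. LIPA rose from 11.2 ± 0.43 to 16.0 ± 2.1 FPKM in A549 (adjusted p = 0.018) and from 10.2 ± 0.51 to 21.2 ± 0.14 in H1299 (adjusted p = 0.00023). Only the outer bounds of the gene models were compared, and whether exons of LIPA overlap those of the IFIT genes was not tested. The strand setting of the counting is not given in the sources used here. Fragments from any shared exon could therefore not be assigned. Next to the cluster, CH25H, an oxysterol-making enzyme also known as an interferon-induced gene, rose from 0.58 ± 0.36 to 1.93 ± 0.35 FPKM in A549 (adjusted p = 0.016) and stood at 5.51 ± 0.32 and 7.09 ± 0.51 in H1299 (adjusted p = 0.16). SLC16A12, on the other side, stayed near or under 0.206 FPKM.

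IFI44, a cytoplasmic protein linked to slower growth of infected cells, rose in both lines and was highest in A549. It stood at 17.7 and 19.0 FPKM in the A549 controls and at 48.0 and 50.7 after miR-29a-3p. In H1299 it stood at 7.55 and 8.61 FPKM in the controls and at 13.3 and 14.1 after miR-29a-3p. Even the treated H1299 libraries lay under the A549 controls. The log2 difference was 1.38 ± 0.074 in A549 (SE, adjusted p = 0.00035) and 0.70 ± 0.074 in H1299 (adjusted p = 0.00045), and the responses differed by 0.68 ± 0.10 (adjusted p = 0.0035).

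IFI44L, the neighbour and relative of IFI44 and a known brake on the interferon response, had the opposite order of lines. It stood at 0.165 and 0.0986 FPKM in the A549 controls and at 0.482 in both miR-29a-3p libraries. The H1299 controls had 1.28 and 1.26 FPKM and the treated libraries 2.20 and 1.88. All A549 libraries lay under all H1299 ones, and about 9.9 fragments per A549 control stood behind the value, estimated from the longest coding transcript. IFI44L rose by 0.39 ± 0.077 in A549 (SE, adjusted p = 0.021) and by 0.42 ± 0.077 in H1299 (adjusted p = 0.0046) on the log2(FPKM + 1) scale. That scale shrinks changes of low genes: with a pseudocount of 0.1 the A549 value was 1.34 (adjusted p = 0.007), and the ratio of mean FPKM was 3.66 in A549 and 1.60 in H1299. Removal of any 1 A549 library ended the A549 call (adjusted p = 0.0558 to 0.0927), as did the replicate number as a block (adjusted p = 0.0576).

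IFI44L (ENSG00000137959, 78619922 to 78646145) and IFI44 (ENSG00000137965, 78649796 to 78664078) stand 3.65 kb apart on chromosome 1, on the same strand. The ratio of IFI44 to IFI44L was 108 and 193 in the A549 controls and 99.7 and 105 after miR-29a-3p. In H1299 it was 5.89 and 6.84 in the controls and 6.04 and 7.52 after miR-29a-3p. The ratio thus set the lines apart far more than the transfections. Of the coding genes on either side, PTGFR, a prostaglandin receptor, stayed under the filter, with group means of 0.0515 to 0.927 FPKM.

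IFI6, a membrane protein that hinders the viral remodelling of the endoplasmic reticulum, responded more in H1299 than in A549. It stood at 40.2 and 33.9 FPKM in the A549 controls and at 50.5 and 53.3 after miR-29a-3p. In H1299 the levels were 58.0 and 53.9 FPKM in the controls and 136 and 116 after miR-29a-3p. The H1299 controls lay just above the treated A549 libraries. IFI6 (ENSG00000126709, chromosome 1, 27666061 to 27672218, minus strand) rose by 0.48 ± 0.10 in A549 (SE, adjusted p = 0.029) and by 1.16 ± 0.10 in H1299 (adjusted p = 0.00024), and the responses differed by -0.68 ± 0.15 (A549 minus H1299, adjusted p = 0.014). In A549 IFI6 no longer passed after removal of control 2 (adjusted p = 0.119) or of either treated library (0.0898 and 0.122), with no filter on low values (0.0722), with the replicate number as a block (0.0537) or when the line was fitted alone (0.0671).

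IFI27, a small protein of the same family as IFI6, was low in A549 and moderate in H1299. It stood at 0.521 and 0.530 FPKM in the A549 controls and at 1.23 and 1.04 after miR-29a-3p. These values came from an estimated 4.87 fragments per A549 control and 11.4 per treated A549 library. The A549 call and the test between lines therefore rest on few fragments. In H1299 it stood at 7.89 and 8.21 FPKM in the controls and at 9.99 and 10.1 after miR-29a-3p. The groups did not overlap in either line. IFI27 (ENSG00000165949, chromosome 14, 94104836 to 94116698, plus strand) rose by 0.49 ± 0.064 in A549 (SE, adjusted p = 0.0057) and by 0.29 ± 0.064 in H1299 (adjusted p = 0.010). Removal of H1299 control 1 (adjusted p = 0.0582) or of treated H1299 library 2 (adjusted p = 0.0536) ended the H1299 call. The responses did not differ by the test on this scale (0.20, 95% interval -0.0244 to 0.416, adjusted p = 0.14), but did with a pseudocount of 0.1 (0.66, adjusted p = 0.0126).

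Paralogs beside IFI27 on chromosome 14 had the reverse order of lines. IFI27L2 stood at 17.1 ± 0.63 and 20.9 ± 1.5 FPKM in A549 (adjusted p = 0.073) and rose from 3.35 ± 0.34 to 6.39 ± 0.39 in H1299 (adjusted p = 0.00046). IFI27L1, which lies within 0.99 kb of IFI27, stood at 4.54 ± 0.24 and 4.62 ± 0.66 in A549 (adjusted p = 0.94) and at 1.19 ± 0.051 and 1.58 ± 0.12 in H1299 (adjusted p = 0.078). In the controls, IFI27 was higher in H1299 while both paralogs were higher in A549.

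RSAD2, also called viperin, an enzyme that turns a nucleotide into a terminator of viral RNA synthesis, was the gene whose responses pointed in opposite directions. It stood at 0.907 and 0.528 FPKM in the A549 controls and at 1.29 and 1.44 after miR-29a-3p. The H1299 controls had 33.7 and 34.6 FPKM and the treated libraries 27.5 and 27.9. Both treated H1299 libraries lay under both controls, which no other of the 10 genes showed there and 37.4% of all genes did, while both treated A549 libraries lay above theirs.

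RSAD2 rose by 0.47 ± 0.10 in A549 (SE, adjusted p = 0.029), and its difference in H1299 was -0.29 ± 0.10 (adjusted p = 0.058). The responses differed by 0.76 ± 0.15 (adjusted p = 0.0086). The A549 call was lost in each fit that left out any 1 library other than A549 control 1 (adjusted p = 0.0555 to 0.123), with no filter on low values (0.0689), with the replicate number as a block (0.0793) and when A549 was fitted alone (0.115). The H1299 difference passed as a fall when H1299 was fitted alone (adjusted p = 0.00797) and when genes averaged at least 5 FPKM (adjusted p = 0.0476). It did not pass with a pseudocount of 0.1 (adjusted p = 0.269), after rescaling of the libraries (0.0996) or with the replicate number as a block (0.101). With 1 library left out it stayed between -0.31 and -0.27. The A549 controls of RSAD2 were themselves the most spread of its groups, at 0.718 ± 0.268 FPKM (SD, n = 2).

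CMPK2, a mitochondrial kinase that supplies the nucleotide on which viperin acts, was near the detection limit in A549 and rose in H1299. It stood at 0.0692 and 0.0690 FPKM in the A549 controls and at 0.0673 and 0.0714 after miR-29a-3p, which corresponds to about 2.55 and 2.73 fragments per library, so a change in A549 was not detectable at this depth. In H1299 the levels were 4.79 and 4.78 FPKM in the controls and 8.08 and 8.16 after miR-29a-3p. CMPK2 rose by 0.66 ± 0.055 in H1299 (SE, adjusted p = 0.00018). The test between lines says nothing for CMPK2, because at its A549 level an equal fold change would hardly move log2(FPKM + 1).

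RSAD2 (ENSG00000134321, chromosome 2, 6865806 to 6898239, plus strand) and CMPK2 (ENSG00000134326, 6840570 to 6866635, minus strand) are transcribed away from each other, and their gene models overlap by less than 1 kb at their starts. Fragments from that overlap cannot be assigned without strand. The ratio of RSAD2 to CMPK2 was 7.03 and 7.23 in the H1299 controls and 3.40 and 3.42 after miR-29a-3p, so these neighbours moved apart within the same libraries. RNF144A, the next coding gene, rose from 2.78 ± 0.048 to 3.39 ± 0.053 FPKM in H1299 (adjusted p = 0.035) and stood at 0.195 ± 0.067 and 0.123 ± 0.0042 in A549 (adjusted p = 0.42).

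**Figure D3:**
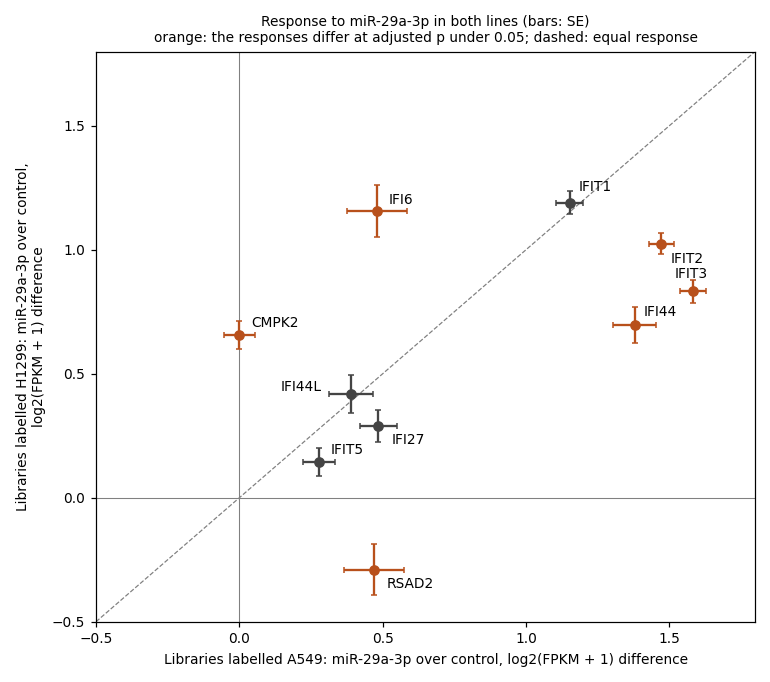
Difference after miR-29a-3p on the log2(FPKM + 1) scale in the libraries labelled A549 (x) and H1299 (y), with SE bars, for each of the 10 genes. Genes on the dashed line respond equally; IFIT2, IFIT3, IFI44 and RSAD2 lie below it and IFI6 above it with a called difference (orange), while the place of CMPK2, also orange, is set by its level near the detection limit in A549.

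Leaving aside CMPK2, the responses of 5 of the other 9 genes differed between the lines by the interaction term, where 37.3% of all tested genes did. The response was higher in A549 for IFIT2, IFIT3, IFI44 and RSAD2 (18.1% of all genes) and higher in H1299 for IFI6 (19.2% of all genes). The share of 5 in 9 rests on few genes, and neighbours such as the IFIT genes share a locus.

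The control libraries alone already differed between the lines for 8 of the 10 genes, where 74.8% of all tested genes did. All H1299 controls lay above all A549 controls for 5 genes (35.4% of all genes) and below them for 4 (51.8% of all genes). RSAD2 was 47.5 times, IFI27 15.3 times, IFI44L 9.63 times and IFI6 1.51 times as high in the H1299 controls as in the A549 controls. For CMPK2 the ratio was 69.3, with a 95% exact binomial interval of 30.0 to 219 that covers counting error only, from an estimated 5 fragments in the A549 controls and 384 in the H1299 controls. On the log2 scale these 5 genes were higher in H1299, by 0.59 for IFI6 (adjusted p = 0.0021) to 4.36 for RSAD2 (adjusted p = 2.4e-07), where 29.8% of all genes were higher. IFI44L and CMPK2 passed the filter on low values only through the H1299 libraries. Their calls as higher there therefore add no support, and the counts of 8 and of 5 include them.

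In the other direction, IFI44 was 0.44 times, IFIT1 0.752 times and IFIT3 0.767 times as high in the H1299 controls, and 45% of all tested genes were lower there. IFIT2 (adjusted p = 0.069) and IFIT5 (adjusted p = 0.99) were not called. IFIT2 changed sign after rescaling of the libraries (from -0.10 to 0.08 on the log2 scale), and IFIT5 was then called higher (0.17, adjusted p = 0.0283). Rescaling moved the median of all genes in this comparison from -0.17 to -0.03. Before rescaling, the summed level of the 10 genes was nearly equal in the controls, at 335 ± 4.92 FPKM (SD, n = 2) in A549 and 337 ± 7.22 in H1299. IFIT3 was the largest part of both sums. Rescaling divides the A549 controls by 1.07 and 1.08 and the H1299 controls by 0.949 and 0.946, which places the H1299 sum higher. After miR-29a-3p the summed level before rescaling was 876 ± 1.08 FPKM in A549 and 619 ± 13.0 in H1299.

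Ordered by mean level, the 4 groups were separate for 8 of the 10 genes and for 34% of all tested genes, with overlap between the controls of the lines for IFIT5 and between the A549 groups for CMPK2. IFIT1, IFIT2 and IFIT3 had the same order, from H1299 control through A549 control and treated H1299 to treated A549. IFI44L, IFI6 and IFI27 had another, with both A549 groups under both H1299 groups and the control lower in each line.

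Other genes of the interferon pathway, from lists by role that were chosen with earlier results of these data known, moved mostly in the same direction. Of 83 genes, 77 were tested. In A549, 36 rose and 2 fell, where 7.3% and 8.66% of all genes did. In H1299, 50 rose and 5 fell, where 25.1% and 24.8% of all genes did. The median log2 difference of these genes was 0.26 in A549 and 0.45 in H1299.

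Among the ligands, 1 of 5 tested genes rose in A549, where 7.3% of all genes rose. In H1299 1 rose and 1 fell, near the shares of all genes (25.1% and 24.8%). IFNB1, the gene of interferon beta, rose from 1.82 ± 0.39 to 3.64 ± 0.31 FPKM in A549 (adjusted p = 0.015). In H1299, IFNE, an epithelial interferon, rose from 3.06 ± 0.46 to 9.80 ± 0.031 FPKM (adjusted p = 6.2e-05) and IFNL1, a lambda interferon, fell from 28.3 ± 1.5 to 14.8 ± 0.96 (adjusted p = 0.00016). IFNB1 in the H1299 controls stood at 7.39 ± 1.2 FPKM, so its RNA was present in the controls of both lines, which were themselves transfected. No untransfected library was analysed here.

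Of the 9 receptor and signalling genes, 2 rose and 1 fell in A549, where 7.3% and 8.66% of all genes did. In H1299, 3 rose and 2 fell, near the shares of all genes (25.1% and 24.8%). IRF9, the DNA-binding subunit of the factor that binds the response element, rose from 1.34 ± 0.032 to 2.11 ± 0.16 FPKM in A549 (adjusted p = 0.023), and STAT2, its partner, rose from 9.94 ± 1.1 to 17 ± 0.46 in H1299 (adjusted p = 0.0013). IL10RB, a chain of the lambda interferon receptor, fell in both lines, from 10.6 ± 0.70 to 7.69 ± 0.37 in A549 (adjusted p = 0.0082) and from 10.4 ± 0.13 to 5.60 ± 0.0041 in H1299 (adjusted p = 0.00014).

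Of 12 sensors and inducing factors, 4 rose in A549 and 7 in H1299, where 7.3% and 25.1% of all genes rose, and 0 fell in either. DDX58, the RNA sensor RIG-I, rose from 35.3 ± 0.80 to 90.2 ± 1.6 FPKM in A549, and DHX58, its relative, from 1.87 ± 0.082 to 4.82 ± 0.31. IFIH1, the sensor MDA5, rose from 40.7 ± 2.0 to 94.7 ± 1.6 in A549 (adjusted p = 0.00022) but stood at 23.8 ± 0.38 and 21.6 ± 1.2 in H1299 (adjusted p = 0.087), and its responses differed between lines (adjusted p = 0.00013). On the log2(FPKM + 1) scale the largest rises in H1299 were those of IRF1 (3.82 ± 0.053 to 7.58 ± 0.17 FPKM), TLR3 (0.353 ± 0.0064 to 1.29 ± 0.026) and IKBKE (4.68 ± 0.38 to 8.51 ± 0.30), with DDX58 (31.1 ± 0.39 to 52.6 ± 2.0) close behind.

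Of 6 inhibitors, 1 rose in A549 and 3 in H1299, where 7.3% and 25.1% of all genes rose, and 0 fell. USP18, which takes ISG15 off proteins and blocks the receptor, rose from 16.6 ± 0.40 to 42.4 ± 2.9 FPKM in A549 and from 12.1 ± 0.10 to 19.4 ± 1.3 in H1299. SOCS3 rose in H1299 from 23.5 ± 1.3 to 37.1 ± 2.7 FPKM and PTPN6, a phosphatase, from 1.51 ± 0.040 to 2.57 ± 0.013.

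Of 45 tested effectors outside the 10 genes, 28 rose and 1 fell in A549, where 7.3% and 8.66% of all genes did. In H1299, 36 rose and 2 fell, where 25.1% and 24.8% of all genes did. ISG15, a ubiquitin-like protein, rose from 340 ± 20 to 829 ± 12 FPKM in A549, ZNFX1, a helicase-like RNA sensor, from 15.8 ± 0.028 to 42.3 ± 0.94, and DDX60, a helicase, from 12.5 ± 0.37 to 30.1 ± 1.6. In H1299 the chemokines CXCL10 and CXCL11 rose from 3.53 ± 0.22 to 14.9 ± 0.34 and from 2.20 ± 0.13 to 8.81 ± 1.0 FPKM, and the GTPase GBP1 from 3.04 ± 0.20 to 8.98 ± 0.50. CXCL10 was the effector that fell in A549, from 43.7 ± 3.0 to 31.3 ± 3.2 (adjusted p = 0.015). The effectors that fell in H1299, named after their values were seen, were IFITM1 (26.2 ± 0.67 to 13.4 ± 1.8) and TRIM25 (22.6 ± 1.5 to 15.8 ± 0.098), and IFITM1 may share fragments with its near-identical relatives.

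**Figure D4:**
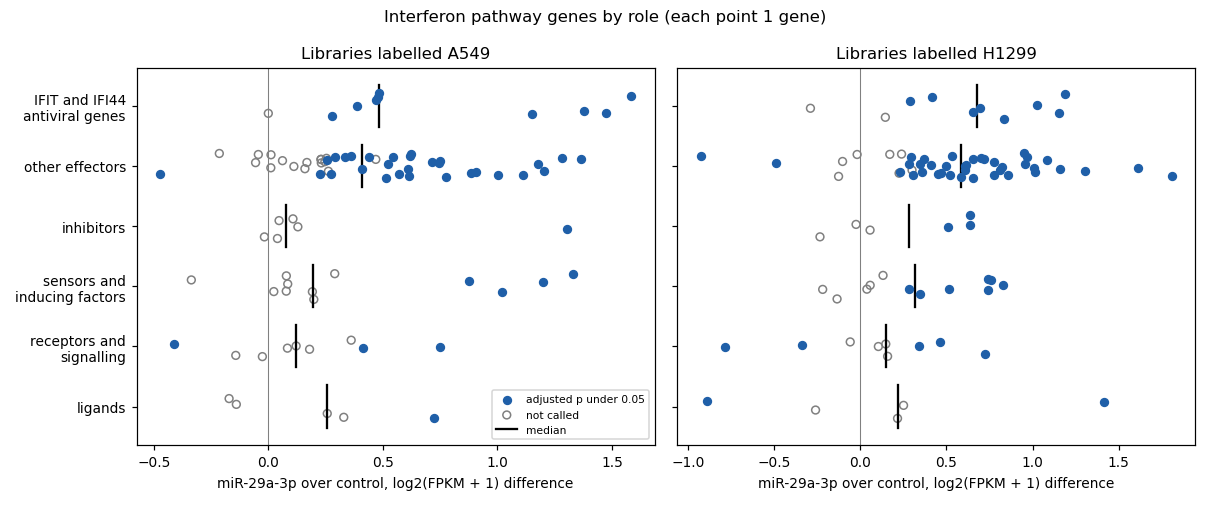
Difference after miR-29a-3p on the log2(FPKM + 1) scale for each tested gene of the interferon pathway by role, in libraries labelled A549 (left) and H1299 (right). Filled points passed limma at adjusted p under 0.05 and bars are medians; the 10 antiviral genes have medians of 0.48 and 0.68.

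Among the genes whose levels over the 8 libraries lay closest to the mean pattern of the 10 were APOL6, APOL2, SLC2A6 and DTX3L, out of 7739 genes that reached 5 FPKM in some group. Likeness was the root mean square distance between log2(FPKM + 1) values centred on their mean, and it ran from 0.0792 for APOL6 to 0.121 for DTX3L. APOL6 stood at 2.36 ± 0.16 and 4.76 ± 0.00098 FPKM in A549 and at 4.53 ± 0.047 and 8.10 ± 0.23 in H1299. SLC2A6, a sugar transporter, stood at 5.71 ± 0.20 and 9.998 ± 0.018 FPKM in A549 and at 9.83 ± 0.29 and 18.9 ± 0.016 in H1299. Among the 10 themselves, IFI44L (0.185) and IFI6 (0.24) lay nearest to their common mean and RSAD2 (1.62) farthest from it, so the mean describes no single IFIT gene.

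Markers of other cells stayed low. All 4 endothelial markers and 6 of 7 leukocyte markers were not listed or under 1 FPKM in all 8 libraries, the exception being ITGAM, which reached 1.34 FPKM. PTPRC, the defining leukocyte gene, was listed at 0 in 3 of the 4 groups and at 0.00673 FPKM in treated H1299. The summed leukocyte list ran from 0.685 to 1.20 FPKM in the A549 controls, 1.32 to 1.57 after miR-29a-3p, 1.20 to 1.41 in the H1299 controls and 2.30 to 2.32 after miR-29a-3p, which moves with the antiviral genes; its part in the result was not tested. Of 5 fibroblast markers, 3 stayed under 1 FPKM and LUM was the highest, at 1.67 FPKM. Their sum was 0.359 to 0.481 FPKM in the A549 controls, 0.257 to 0.342 after miR-29a-3p, 2.29 to 2.36 in the H1299 controls and 3.89 to 4.01 after miR-29a-3p, and its part was not tested either.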

How the data were processed

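Per the file headers, the authors deposited FPKM values for each gene in each library. StringTie and GRCh38 are named in the submitters' processing notes. For versions, aligner, annotation release and strand setting: not given in the sources used here. Per the labels' protocols, total RNA was isolated with TRIzol before VAHTS library preparation. Where a gene had values for 1 line only, the other line was set to 0. Genes reaching 1 FPKM in 2 or more libraries entered limma 3.58.1 (R 4.3.3) on log2(FPKM + 1), with 4 group means, a variance trend and Benjamini-Hochberg adjustment over all 14635 genes. The test planned for normalised values was used because the table holds no counts. Every adjusted p is from limma, and the test was tried on simulated data.

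Compared were the treated and control libraries of each line, these responses between lines, and the controls of H1299 with those of A549. Depth was estimated from the most frequent value of FPKM times length among low genes with 1 transcript, so fragment numbers are estimates. The libraries of a group differed by more than sampling noise (chi-square per degree of freedom 2.65 to 2.80) and were kept as separate replicates. Gene positions and UTRs are from GENCODE release 29, and promoter and microRNA sequences from RefSeq on GRCh38.p14.

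The 10 genes and all lists were chosen with earlier results of these data known. All 10 genes were named, with the 3 most changed called genes of each role list in each line and the 5 genes nearest the mean pattern. A gene that this rule names is not reported here. Alternatives were another pseudocount, 2 other filters, rescaled libraries, the replicate number as a block, groups fitted alone, no variance trend and leaving out each library.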

Additional observations from a re-analysis of the deposited data

Results flagged for a closer look

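The response to miR-29a-3p differed between the libraries labelled A549 and H1299, by the interaction term in limma, for 5 of the 9 antiviral genes other than CMPK2. As A549 minus H1299 on the log2(FPKM + 1) scale, the difference was 0.448 for IFIT2, 0.751 for IFIT3, 0.683 for IFI44 and 0.76 for RSAD2. It was -0.677 for IFI6. RSAD2 was called higher after miR-29a-3p in A549 (limma, adjusted p = 0.029), a call lost when A549 was fitted alone (adjusted p = 0.115). Its lower level in H1299 was not called (adjusted p = 0.058). The value of -0.656 for CMPK2 is no measure of a difference, because CMPK2 lay near the detection limit in A549, where this scale cannot show a response. Of all genes tested, 37.3% differed in the same way.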

How the results depend on the processing

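Across 15 alternatives, IFIT1, IFIT2, IFIT3 and IFI44 kept their direction and their call in both lines in every fit. The number of the 10 genes called in A549 was 9, and 5 to 8 when 1 library was left out; in H1299 it was 8, and 7 to 9, where the 9 include a fall of RSAD2. Between the controls it was 8, where 74.8% of all tested genes were called, and 5 of 7 tested when genes averaged at least 5 FPKM. The 8 include IFI44L and CMPK2, which passed the filter only through the H1299 libraries. The count of all genes called in A549 was 2336, against 1066 to 1937 with 1 library left out, 1261 with the replicate block and 1071 when the line was fitted alone; in H1299 it was 7312, against 3773 of the 6085 genes that averaged 5 FPKM or more.

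Library numbers did not mark shared cultures in the labels, and the deviations of same-numbered libraries correlated by 0.0176 in A549 and -0.0109 in H1299 over genes. With the replicate block, 6 of the 10 genes were called in A549, where 1261 of all 14635 genes were. In H1299 it was 8 of the 10, where 6833 of all genes were called. In A549, IFI44L (adjusted p = 0.0576), IFI6 (0.0537) and RSAD2 (0.0793) lost their call.

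Signs changed for values that were not called. CMPK2 in A549 was 0.00032, and -0.0025 to 0.0031 with 1 library left out, the lowest without A549 miR-29a-3p 2. The difference between lines for IFIT1 was -0.037, and -0.080 to 0.0067 with 1 library left out, the highest without A549 control 2. That for IFI44L moved from -0.028 to 0.71 with a pseudocount of 0.1 (adjusted p = 0.0793), to 0.014 without A549 control 1 and to 0.048 without H1299 miR-29a-3p 1. Between the controls, IFIT2 moved from -0.10 to 0.083 after rescaling. IFIT5 moved from 0.00067 to -0.019 without A549 control 1 and to between -0.029 and 0.031 without 1 H1299 control. With the replicate block the IFIT5 value was -0.013. As coded, that fit compares the control levels fitted for the libraries numbered 1, so it is not the same difference of group means. The cause of the other sign changes was not tested. With 2 libraries a group and few fragments, depth limits IFI44L, IFI27, RSAD2 and CMPK2 in A549.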
